A study of Homo sapiens with 2 samples.

Results

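The genes examined were the 38 protein-coding integrin and laminin genes, chosen by symbol from 19974 RefSeq protein-coding genes on chromosomes 1 to 22 and X. They comprised 26 integrin subunits and 12 laminin chains. The symbol ITGB3BP, which also begins with ITGB and a digit, belongs to a centromere protein and was left out. Binding of ETV4, an ETS-family transcription factor, was taken from the peaks of 1 anti-Flag ChIP-seq library, beside which the study has 1 input library. In the immunoprecipitate, A549 cells, a human lung adenocarcinoma line, carried an shRNA against ETV4 (A549-shETV4) and were transfected again with full-length Flag-ETV4, so the profile is that of a tagged protein supplied by a plasmid, and the level of that protein was not analysed here. The input is labelled only as A549 without antibody. The labels name a Sigma Flag antibody, and the methods for ChIP assays one from CST. A peak list cannot show whether the cells were of the labelled type. There was no replicate of either library, so no comparison between conditions and no SD can be given.

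Integrins are heterodimers of an alpha and a beta subunit that bind extracellular matrix or counter-receptors on other cells and link them to the actin cytoskeleton or to keratin filaments. Epithelial cells hold on to the basement membrane mainly through receptors for laminin and collagen, such as the pairs of ITGA6 with ITGB4 and of ITGA3 or ITGA2 with ITGB1, whereas the beta 2 integrins (ITGB2 with ITGAL, ITGAM, ITGAX or ITGAD) are made by leukocytes. Laminins are trimers of an alpha, a beta and a gamma chain and form the network of the basement membrane. Laminin-332, to which LAMA3 and LAMB3 contribute, anchors epithelia, and the trimers of LAMA5 with LAMB1 or LAMB2 and LAMC1 are widespread.

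ETS factors bind a GGAA core. The RefSeq sequence of the 250 bases before the transcription start (GRCh38.p14, 5′ to 3′) is given here for 7 members whose start was met by a peak and for ITGB6, an epithelial integrin with no peak there. Capitals mark each GGAA, or TTCC where the core lies on the other strand.
ITGB1, chr10:32958231-32958480, minus strand: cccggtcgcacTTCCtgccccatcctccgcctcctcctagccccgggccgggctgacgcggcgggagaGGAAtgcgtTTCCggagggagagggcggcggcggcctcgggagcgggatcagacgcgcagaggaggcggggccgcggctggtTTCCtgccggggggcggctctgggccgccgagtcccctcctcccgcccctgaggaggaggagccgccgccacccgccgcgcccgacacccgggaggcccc
ITGA5, chr12:54419267-54419516, minus strand: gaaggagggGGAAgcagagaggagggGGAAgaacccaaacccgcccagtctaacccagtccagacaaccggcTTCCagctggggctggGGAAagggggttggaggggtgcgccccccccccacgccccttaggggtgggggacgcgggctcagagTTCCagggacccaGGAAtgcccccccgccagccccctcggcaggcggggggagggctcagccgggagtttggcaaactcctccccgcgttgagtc
ITGAV, chr2:186589806-186590055, plus strand: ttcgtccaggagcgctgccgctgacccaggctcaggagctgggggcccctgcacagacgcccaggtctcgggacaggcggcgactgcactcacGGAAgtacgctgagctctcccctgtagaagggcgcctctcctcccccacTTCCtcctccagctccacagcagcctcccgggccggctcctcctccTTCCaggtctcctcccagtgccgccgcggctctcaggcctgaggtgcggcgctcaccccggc
ITGA1, chr5:52787666-52787915, plus strand: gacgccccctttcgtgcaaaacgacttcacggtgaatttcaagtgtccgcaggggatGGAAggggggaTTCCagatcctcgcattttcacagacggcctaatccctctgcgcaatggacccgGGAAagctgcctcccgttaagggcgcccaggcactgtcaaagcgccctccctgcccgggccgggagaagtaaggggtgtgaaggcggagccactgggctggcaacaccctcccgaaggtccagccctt
LAMB2, chr3:49133051-49133300, minus strand: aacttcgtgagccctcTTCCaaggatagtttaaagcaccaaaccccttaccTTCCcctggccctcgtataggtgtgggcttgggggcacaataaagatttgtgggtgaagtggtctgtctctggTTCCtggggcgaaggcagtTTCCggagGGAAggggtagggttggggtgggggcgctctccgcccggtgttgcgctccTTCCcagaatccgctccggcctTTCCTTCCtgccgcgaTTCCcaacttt
LAMC1, chr1:183023170-183023419, plus strand: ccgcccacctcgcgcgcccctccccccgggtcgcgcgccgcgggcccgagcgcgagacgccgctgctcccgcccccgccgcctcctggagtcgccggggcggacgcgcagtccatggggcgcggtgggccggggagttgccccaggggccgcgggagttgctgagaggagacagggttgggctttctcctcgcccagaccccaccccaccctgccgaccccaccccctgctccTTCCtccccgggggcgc
ITGA4, chr2:181457136-181457385, plus strand: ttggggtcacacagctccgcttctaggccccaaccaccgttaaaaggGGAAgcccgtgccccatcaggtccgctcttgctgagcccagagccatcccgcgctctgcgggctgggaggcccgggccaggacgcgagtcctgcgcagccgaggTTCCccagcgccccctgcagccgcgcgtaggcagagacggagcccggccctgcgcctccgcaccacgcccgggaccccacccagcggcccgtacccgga
ITGB6, chr2:160200273-160200522, minus strand: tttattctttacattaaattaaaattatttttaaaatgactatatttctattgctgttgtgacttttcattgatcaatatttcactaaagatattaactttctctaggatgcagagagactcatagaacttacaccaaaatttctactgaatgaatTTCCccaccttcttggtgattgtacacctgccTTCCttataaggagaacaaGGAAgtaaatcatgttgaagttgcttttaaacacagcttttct
The upstream sequence of ITGB1 held 4 cores and 32 CpG dinucleotides, and that of LAMC1 held 1 core and 32 CpG. LAMB2 had the most cores of these, 9, with 12 CpG. The ITGB6 sequence held 3 cores and no CpG, so the core alone did not separate it from the bound starts. The summit at ITGB1 fell within a core, and those at ITGA5, LAMB2, ITGA1 and ITGAV lay 1, 4, 5 and 16 bp from the nearest one, with the first 50 transcribed bases searched too. At ITGA4 the nearest core was 141 bp from the summit, which lay 45 bp inside the transcribed region.

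Peaks were found at nearly all members. Of the 38 genes, 37 (97.4%, Wilson 95% confidence interval 86.5% to 99.5%) had at least 1 peak within 10 kb of their span, against 81.9% of all protein-coding genes and 93% of those at least 50 kb long. The median span of the members was 79.2 kb and that of all protein-coding genes 24.2 kb. LAMA1, the alpha chain of the laminin of early embryonic basement membranes, was the exception, with no peak in 176 kb or its flanks. The windows held 167 distinct peaks, of which 1, at the start of LAMB1, fell into the windows of both LAMB1 and LAMB4. Their fold enrichment over the control level (the background that the peak caller assigned to each summit) ranged from 3.10 to 151 with a median of 11.5, against 9.63 for all 54389 peaks. A fold of 10 or more was reached by 90 of them (53.9%), against 48.5% of all peaks, and a fold of 50 or more by 9 (5.39%), against 6.06%. Of the members, 24 had a peak no more than 1 kb from one of their ends (63.2%, 47.3% to 76.6%), against 62.3% of all protein-coding genes and 69.4% of the long ones, and 21 had one of fold 10 or more there (55.3%, 39.7% to 69.9%), against 45.4% and 52.8%. A peak of fold 10 or more anywhere was within reach of 32 members (84.2%, 69.6% to 92.6%), against 65.6% of all protein-coding genes and 79.7% of those at least 50 kb long, and a peak of fold 50 or more of 8 members (21.1%, 11.1% to 36.3%), against 11.7% and 18%. The number of fragments at a summit (the pileup), solved from the fold and the p-value of each peak, had a median of 32 over the member peaks and ranged from 8 to 406. Precision therefore differed widely, since a pileup of 8 or 9 fragments has a counting interval of more than its own size. Of the 5 members that had only peaks of fold under 10, ITGA2B and ITGB6 were nearest to a fold of 10, at 9.02 and 9.08, and ITGA9, at 11.8, and ITGA6, at 11.9, were the lowest to pass it.

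**Figure D1:**
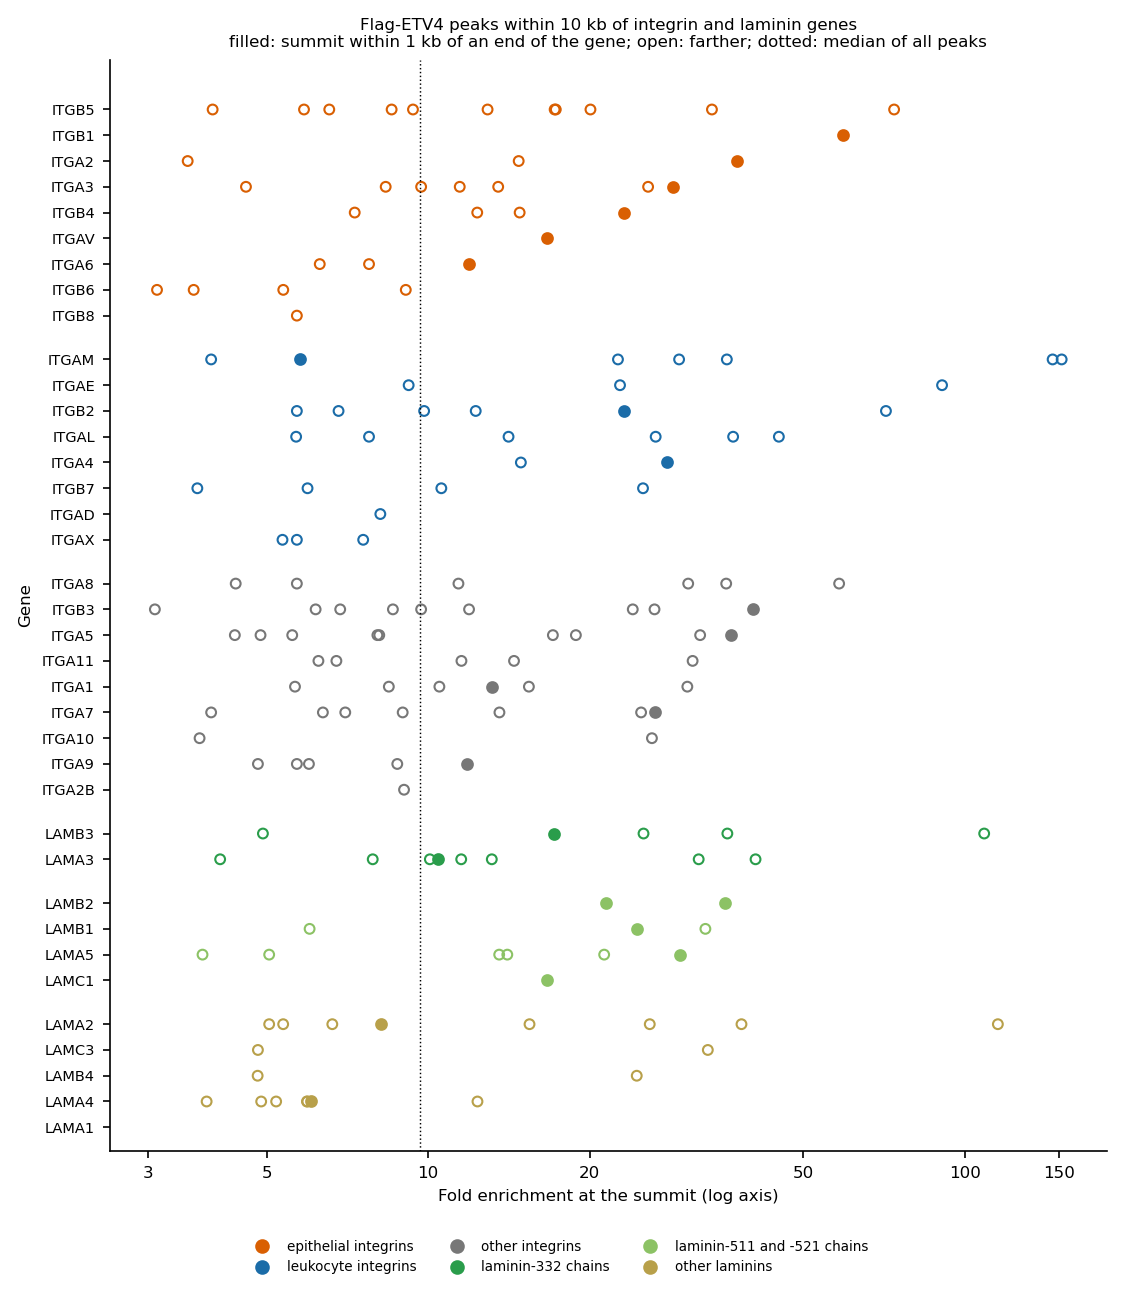
Fold enrichment (log axis) of every Flag-ETV4 peak within 10 kb of 37 of the 38 genes, by group. Filled points have a summit within 1 kb of an end of the gene. The rightmost points are the pair of ITGAM peaks at 146 and 151, and LAMA1 has none.

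In 6 of the 9 epithelial integrin genes the summit of the strongest peak was within 1 kb of a gene end, as it was in 4 of the 9 other integrins and 14 of the 37 members with a peak. The position of the strongest summit was not counted over all protein-coding genes. By another measure, 6 of the 9 epithelial genes had a peak of fold 10 or more within 1 kb of an end (66.7%, 35.4% to 87.9%), against 45.4% of all protein-coding genes and 52.8% of those at least 50 kb long. The share was the same, 6 of 9, in the integrins of neither the epithelial nor the leukocyte group. ITGB1, the beta subunit shared by the collagen, fibronectin and most laminin receptors, had a single peak, with a fold of 59.4 and 180 fragments (95% confidence interval 155 to 208, exact Poisson) over a control level of 2.05, on chromosome 10 from 32957279 to 32958960. Its summit was 179 bp upstream of the start. ITGA2, the collagen-binding partner of ITGB1, had a peak of fold 37.7 (115 fragments, 94.9 to 138) on chromosome 5 from 52988615 to 52990306, with the summit 292 bp upstream of the start and within 1 kb of an end of ITGA2-AS1. A weaker peak of fold 14.7 lay 1526 bp upstream. Both genes thus had their highest signal just before the transcribed region.

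ITGA3, the laminin-binding alpha 3 subunit, had 7 peaks, which stood over high control levels of 3.72 to 5.84. The strongest, on chromosome 17 from 50055490 to 50057713, had a fold of 28.5 and a pileup of 172 fragments (147 to 200), and its summit was 115 bp outside the lower-coordinate end of the gene. By pileup it was close to the ITGB1 peak, whose interval it overlapped, although its fold was lower. A second ITGA3 peak of fold 25.7 lay 4594 bp beyond the other end, inside the neighbouring gene PDK2. ITGB4, the beta subunit of hemidesmosomes, had a peak of fold 23.1 (80 fragments, 63.4 to 99.6) with the summit 107 bp outside its lower-coordinate end, and 3 weaker peaks of fold 7.30 to 14.8. Those of fold 14.8 and 12.3 lay inside GALK1, the former 7070 bp beyond ITGB4 and the latter within both genes. ITGA6, the partner of ITGB4, had a fold of 11.9 (31 fragments, 21.1 to 44.0) at a summit 117 bp inside the nearest of its listed starts, and 2 weaker peaks within the gene. The pileup intervals of ITGB4 and ITGA6 did not overlap.

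ITGAV, the alpha V chain of vitronectin and fibronectin receptors, pairs with ITGB5, ITGB6 and ITGB8 and also with ITGB3, which is described with the other integrins. ITGAV itself had 1 peak, of fold 16.6 (37 fragments, 26.1 to 51.0), 78 bp upstream of the start. ITGB5 had 11 peaks, the most of any member, of which 6 had a fold of 10 or more. The highest ITGB5 peak, with a fold of 73.8 and 220 fragments (192 to 251), lay inside the gene on chromosome 3 from 124833876 to 124836094, 52648 bp from the nearest listed start. The next, with a fold of 33.8, covered a pair of internal starts of ITGB5, with the summit 14076 bp from the outermost end, at which no peak was found. The remaining 4 of fold 10 or more, at 12.9, 17.2, 17.3 and 20.1, were all inside ITGB5. ITGB6, the epithelial beta 6 subunit, had 4 peaks of fold 3.12 to 9.08 and none within 1 kb of its start. Their control levels, from 3.38 to 6.08, included the highest of all member peaks. ITGB8, whose product also pairs with alpha V, had 1 weak peak of fold 5.69 (12 fragments, 6.20 to 21.0), 224 bp inside the start.

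The 2 strongest peaks of the whole set lay within a leukocyte integrin gene and away from its ends. ITGAM, the alpha chain of the complement receptor of myeloid cells (CD11b), had peaks of fold 151 (406 fragments, 367 to 447) and 146 (359 fragments, 323 to 398) on chromosome 16, from 31323764 to 31324772 and from 31261876 to 31262708. Both stood at the 99.8th percentile of all peaks, over control levels of 1.69 and 1.47. Their summits were 64.2 kb and 2264 bp downstream of the start. At the start itself there was only a peak of fold 5.77 (13 fragments), with the summit 750 bp inside the gene. The other ITGAM peaks of fold 10 or more were at 36.0 and 22.6 inside the gene and at 29.3, 1604 bp beyond its downstream end. The pileup intervals of the pair overlapped, and both were far above that of the peak at the start.

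**Figure D2:**
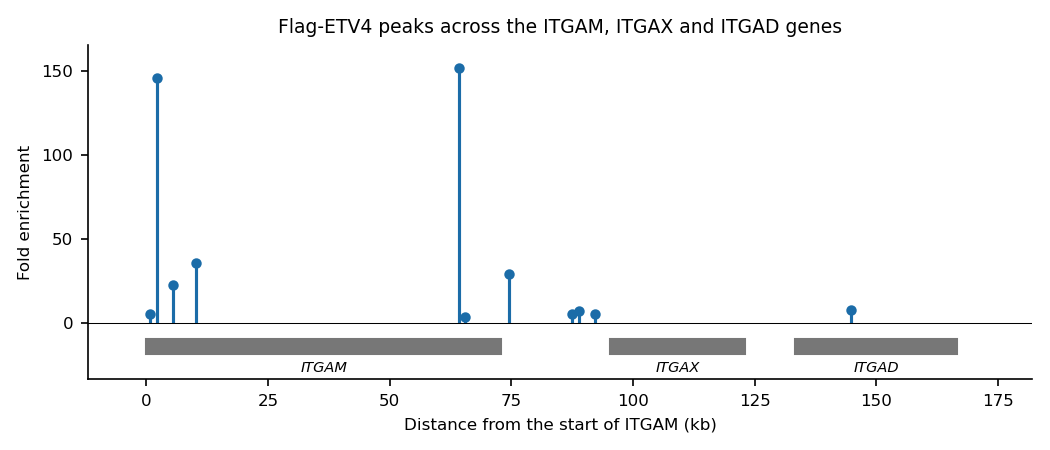
Fold enrichment of the Flag-ETV4 peaks (stems) against the distance from the start of ITGAM, with the spans of ITGAM, ITGAX and ITGAD as grey bars. The highest stems, at 2.26 and 64.2 kb, are inside ITGAM, whereas no peak meets the span of ITGAX and the single peak of ITGAD has a fold of 8.14.

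The genes next to ITGAM were far less enriched. ITGAX, the CD11c chain of dendritic cells and macrophages, had 3 peaks of fold 5.35 to 7.57, none of which met its span and which lie between ITGAM and ITGAX. ITGAD, the alpha D chain, had 1 peak of fold 8.14 (30 fragments, 20.2 to 42.8) inside the gene. ITGAL, the alpha chain of the lymphocyte receptor for ICAM1, lies elsewhere on the chromosome and had 6 peaks. Its highest folds were 45.0 (114 fragments, 94.0 to 137), 5273 bp inside the gene, and 37.0 (137 fragments, 115 to 162), 4019 bp beyond its end and inside ZNF768. The remaining ITGAL peaks of fold 10 or more, at 26.5 and 14.1, were inside the gene.

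At ITGB2 and ITGAE too the strongest peak lay inside the gene, more than 1 kb from its ends. ITGB2 encodes the common beta chain of these receptors, and ITGAE the alpha E chain of intraepithelial lymphocytes, which binds E-cadherin. ITGB2 had a peak of fold 71.3 (167 fragments, 143 to 194) on chromosome 21 from 44925134 to 44925848, 3281 bp inside the gene. A second ITGB2 peak, of fold 23.1, met the higher-coordinate end and lay within 1 kb of an end of ITGB2-AS1, and another, of fold 12.3, was inside the gene. ITGAE had a peak of fold 90.7 (206 fragments, 179 to 236) on chromosome 17 from 3785170 to 3785929, 15658 bp inside the gene from its start, and no peak within 1 kb of the start. Its next peak, of fold 22.8, was at HASPIN, a gene nested in ITGAE. ITGB7, the partner of ITGAE and ITGA4 in gut-homing lymphocytes, had no peak meeting its span. The strongest in its window, of fold 25.1, was 10618 bp away at CSAD and ZNF740, inside the window by its interval but not by its summit. ITGA4 had its strongest peak, with a fold of 27.9 (73 fragments, 57.2 to 91.8), at its start. The subunit it encodes is also made by other cells.

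The epithelial and leukocyte integrins were set side by side by the number, strength and position of their peaks. All 9 epithelial and all 8 leukocyte genes had a peak within 10 kb, against 81.9% of all protein-coding genes and 93% of those at least 50 kb long. A peak of fold 10 or more was there in 7 epithelial (77.8%) and 6 leukocyte genes (75.0%), against 65.6% and 79.7%. The median number of peaks was 3 in the epithelial and 3.5 in the leukocyte genes. Per 100 kb of window the medians were 3.03 and 6.90. The epithelial genes had a median span of 86.0 kb and the leukocyte genes one of 46.7 kb. The strongest fold per gene had a median of 23.1 and a range of 5.69 to 73.8 in the epithelial group. In the leukocyte group the median was 36.5 and the range 7.57 to 151. Most of the epithelial range thus lay within the leukocyte range, whereas ITGAM at 151 and ITGAE at 90.7 were above every epithelial gene. The corresponding median pileups were 80 and 103 fragments and the median control levels 2.05 and 1.67. Over all peaks in the windows, the median pileups were 43 and 40.5 fragments, the median control levels 2.70 and 1.63 and the median folds 11.4 and 13.2. The part of the control level in these differences was not tested.

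A peak of fold 10 or more lay within 1 kb of an end in 6 of the 9 epithelial genes and in 2 of the 8 leukocyte genes (25.0%, 7.15% to 59.1%), ITGA4 and ITGB2. The intervals of these shares overlap, and the background share of 45.4% lies in both. With peaks of any fold the counts were 6 of 9 and 3 of 8, against 62.3% of all protein-coding genes. An end window of 3 kb gave 7 and 5, and no background share was counted for it. Without ITGB1 and ITGAV the epithelial count with any fold was 4 of 7, and without ITGA4 and ITGAE the leukocyte count was 2 of 6. Of the 18 peaks of fold 10 or more in each group, 6 epithelial and 2 leukocyte summits were within 1 kb of an end of the gene, and 8 and 11 were inside the gene farther from its ends. Over all members 21 of 90 such summits (23.3%) were within 1 kb of an end and 47 (52.2%) were inside and farther away. These summit positions were not counted over all protein-coding genes, so they have no background share here. For genes with a listed start, a peak of any fold was within 1 kb of it in 6 of 7 epithelial genes, in 2 of 4 leukocyte genes and in 64.5% of all protein-coding genes. With so few genes, and no replicate, these counts are a description.

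**Figure D3:**
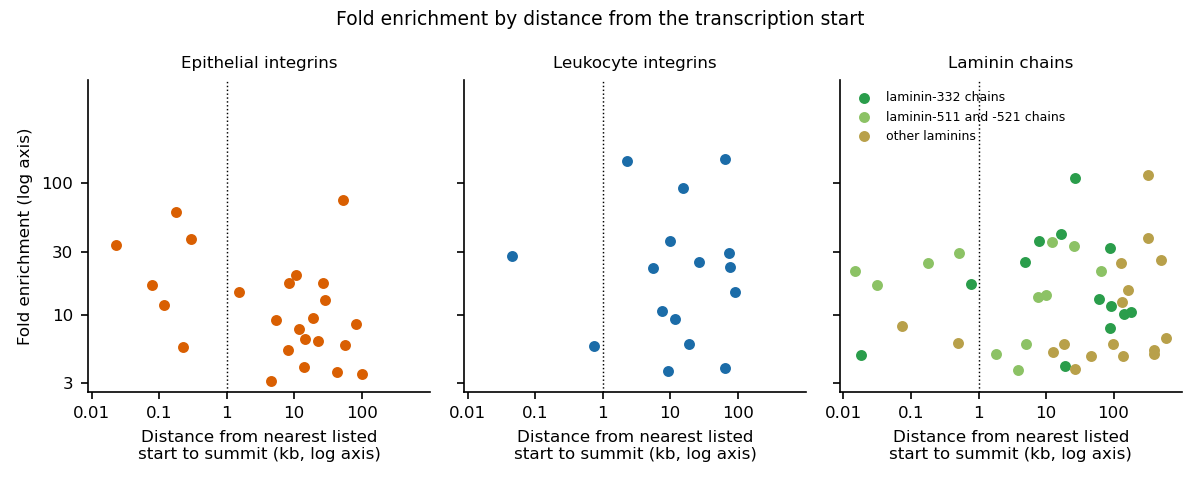
Fold enrichment of each peak against the distance of its summit from the nearest listed start (both log axes), for the 7 epithelial integrin, 4 leukocyte integrin and 9 laminin genes with a listed start. The dotted line marks 1 kb. The leukocyte points above a fold of 50 and the highest epithelial point, ITGB5 at 73.8, are to its right, and the epithelial points to its left reach 59.4.

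**Figure D4:**
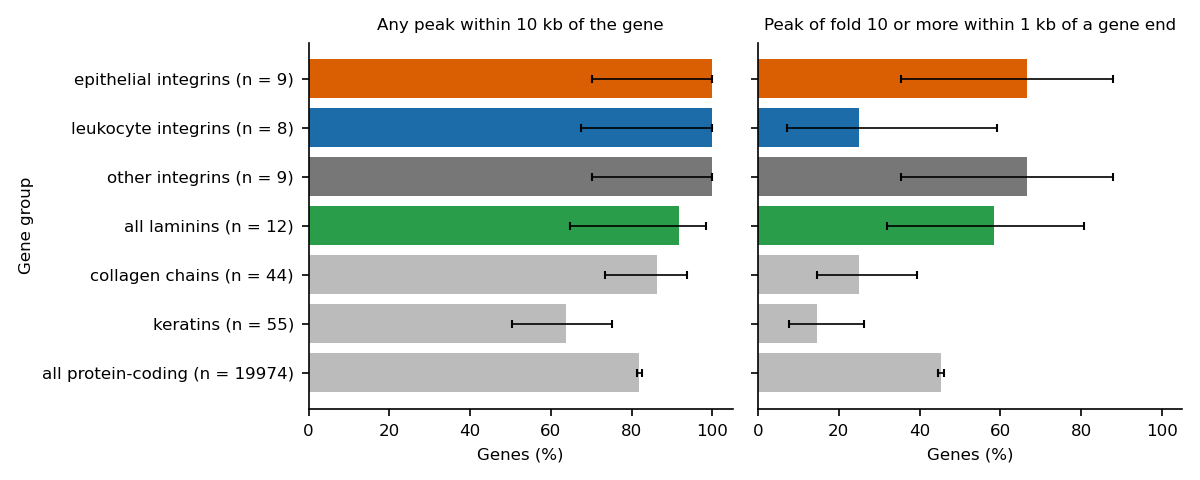
Percent of genes with any peak within 10 kb (left) and with a peak of fold 10 or more within 1 kb of an end (right), with Wilson 95% confidence intervals. Nearly every integrin and laminin gene has a peak on the left, while on the right the leukocyte integrins are at 25.0% and the epithelial and the other integrins both at 66.7%, with wide intervals.

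The 9 other integrins, which serve fibroblasts, muscle, platelets and several cell types at once, held 50 peaks with a median fold of 9.36. ITGA5, the fibronectin receptor alpha chain, was the gene with the densest binding of all members, with 9 peaks and 20.5 peaks per 100 kb of window. Its start had a peak of fold 36.7 (110 fragments, 90.4 to 133), and 3 further peaks of fold 17.1 to 32.1 lay upstream at distances of 2076 to 8916 bp. ITGB3, the beta chain of the platelet fibrinogen receptor and a further partner of ITGAV, also had 9 peaks, led by one of fold 40.2 (150 fragments, 127 to 176) 163 bp inside its lower-coordinate end. Its platelet partner ITGA2B had only a peak of fold 9.02 inside the neighbouring FAM171A2. ITGA8, a subunit of mesenchymal cells, had no peak at its start, and its strongest peak, of fold 58.3 (136 fragments, 114 to 161), was 190912 bp from the start. Its other peaks of fold 10 or more were at 35.9 and 11.4 inside ITGA8 and at 30.5, 6378 bp upstream.

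Several strong peaks in this group lay at another gene as well. ITGA1, the collagen-binding alpha 1 subunit, had its highest fold, 30.4, inside PELO, which is nested in ITGA1. The peak at the start of ITGA1, of fold 13.1, also lay within 1 kb of an end of PELO. ITGA7, the laminin receptor subunit of muscle, had its highest fold, 26.5, in a peak of 3222 bp that also covered an end of BLOC1S1. ITGA10 and ITGA11, collagen-binding subunits, reached 26.1 and 31.1, in the former 1070 bp inside the downstream end and in the latter 30564 bp from that end. ITGA9, at 371 kb the longest integrin gene, reached only 11.8, 154 bp outside its lower-coordinate end, and its other 4 peaks had folds of 4.82 to 8.76.

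The laminin-332 genes LAMB3 and LAMA3 had strong peaks away from their ends and weaker ones at them. LAMB3 had a fold of 109 (247 fragments, 217 to 280) on chromosome 1 from 209624585 to 209625388, 10072 bp inside the gene from its downstream end. Upstream of LAMB3 the folds were 17.1, 25.2 and 36.1, at 768, 4926 and 7766 bp from the nearest start. LAMA3 had 8 peaks, led by a fold of 40.7 (92 fragments, 74.2 to 113) located 16739 bp inside the single listed start, which is internal to the gene. A fold of 31.9 lay 6063 bp beyond its downstream end, and at its outermost 5′ end the fold was 10.4. The other LAMA3 peaks of fold 10 or more, at 10.1, 11.5 and 13.1, were inside the gene. The strongest peaks of LAMB3 and LAMA3 both stood over the lowest control level of the list, 1.28.

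The chains of the widespread laminins all had peaks at their starts. All 4 had a peak of fold 10 or more within 1 kb of a listed start, against 47.1% of all protein-coding genes. For LAMA5 the fold was 29.4 (98 fragments, 79.6 to 119), for LAMB1 24.5 (68 fragments, 52.8 to 86.2), for LAMB2 21.5 (48 fragments, 35.4 to 63.6) and for LAMC1 16.6 (37 fragments, 26.1 to 51.0). The pileup interval of LAMA5 did not overlap those of LAMB2 and LAMC1, whereas LAMB1 overlapped its neighbours in this order. LAMC1 had no other peak in 122 kb. LAMB1 reached a higher fold, 32.8, at 26384 bp inside the gene, and LAMB2 one of 35.7 at its 3′ end, within 1 kb of an end of USP19.

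The remaining laminin genes had their highest folds elsewhere. LAMA2, the muscle laminin alpha chain and with 633 kb the longest member, had a fold of 115 (262 fragments, 231 to 296) on chromosome 6 from 129205778 to 129206574, 323054 bp from its start, and a second of 38.3 at 325666 bp. Further LAMA2 peaks inside the gene had folds of 25.9 and 15.4. At the LAMA2 start the fold was 8.17. LAMA4, an endothelial and mesenchymal chain, had 7 peaks of which 1 reached a fold of 10, at 12.4. Its peak at the start had a fold of 6.06, with the summit 491 bp inside the listed start. In LAMC3 and LAMB4, the only peaks of fold 10 or more, at 33.2 and 24.5, lay in AIF1L and at the start of LAMB1. None of the 5 genes, which include LAMA1, had a peak of fold 10 or more within 1 kb of an end (Wilson interval 0% to 43.4%). The background shares were 45.4% of all protein-coding genes and 52.8% of those at least 50 kb long.

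The laminin gene LAMB2 is on chromosome 3, from 49121114 to 49133050. It is distinct from LMNB2, a nuclear lamin gene on chromosome 19 from 2428166 to 2456959 that has LAMB2 among its synonyms. The LMNB2 window held 4 peaks with a highest fold of 34.2, and that of LAMB2 held 2 with a highest fold of 35.7.

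Partners of integrins and laminins were counted from lists of 21 adhesion adaptors, 4 hemidesmosome genes, 11 other basement membrane genes and 10 other ligands. A peak of fold 10 or more was within 10 kb of 20 of the adaptors, the exception being PARVG, a blood-cell parvin with no peak at all. By fold the adaptors were led by TNS1 at 135, BCAR1 at 80.1 and SRC at 56.5, none of which had a peak of fold 10 or more at an outermost end, although TNS1 and BCAR1 had folds of 68.8 and 38.1 at a listed start, and by PTK2 (focal adhesion kinase) at 56.2 and ZYX (zyxin) at 55.8, which had it there. Talin 1 (TLN1), which activates integrins, and ILK reached 40.2 and 36.5 at an end. All 4 hemidesmosome genes had a peak of fold 10 or more in the window, with PLEC (plectin) at 50.1 (26.8 at an end) and CD151, a tetraspanin bound to laminin receptors, at 34.6 (20.5 at an end). Of the basement membrane genes 9 had one, with DAG1, the laminin receptor dystroglycan, the highest at 37.7. Of the ligands 7 had one, led by the leukocyte counter-receptors ICAM2 at 108, MADCAM1 at 54.1 and ICAM1 at 51.0. Of these, ICAM1 had that fold at an end, whereas ICAM2 had 11.2 there and MADCAM1 no peak. VCAM1, the main ligand of ITGA4 with ITGB1, and SPP1 had no peak in the window. CDH1 (E-cadherin), the ligand of ITGAE, had 1 peak of fold 3.72. Median spans were 83.9 kb for the adaptor, 58.1 kb for the hemidesmosome, 150 kb for the basement membrane and 16.8 kb for the ligand genes. A peak of fold 10 or more was in the window of 65.6% of all protein-coding genes and 79.7% of those at least 50 kb long. For comparison, 32 of 44 collagen chain genes (72.7%, 58.2% to 83.7%) and 22 of 55 keratin genes (40.0%, 28.1% to 53.2%) had one. The median span was 145 kb for the collagen genes and 6.43 kb for the keratin genes.

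RefSeq sequence from 250 bases before to 50 bases after a start was at hand for 33 starts of 26 members. Peaks met 19 of these windows (57.6%), against 54.3% of the windows of all protein-coding genes. Windows met by a peak were rich in CpG, with a median of 27 in the members and 28 in all genes, against 7 in both for windows without a peak. The core GGAA or its reverse complement TTCC occurred in 31 of the 33 member windows (93.9%) and in 95.2% of all windows, and its share was 94.7% in the member windows met by a peak and 92.9% in the others. A longer ETS word, CGGAAG on either strand, which contains the core, was in 5 of the 19 met windows and 1 of the 14 others, against 34.6% and 10.8% over all genes. The SP1 box GGGCGG was in 14 of the 19 and 5 of the 14 (all genes 76.1% and 32.7%). The AP-1 word TGACTCA was in 3 of the 33 member windows, those of ITGA5, LAMA3 and LAMB3, against 4.01% over all genes, and the E-box CACGTG in 1, that of ITGA6, against 8.34%. Where a summit lay in the window, a GGAA core was within 20 bp of it in 7 of 9 member windows (77.8%, 45.3% to 93.7%) and in 56.9% of 4094 windows of all genes.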

How the data were processed

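The data were peaks of 1 anti-Flag ChIP-seq library (Flag-ETV4 in A549-shETV4 cells), with 1 input library. Per the labels, the authors' processing used Bowtie2 2.4.1, SAMtools, MACS2 2.2.7.1 and deepTools 3.5.0 on hg38; beyond a lower limit on fold, parameters, duplicate handling and whether the input was the control of the calls are not given in the sources used here. For each peak the authors deposited an interval, a summit, the fold over the control (a ratio), the −log10 p-value, the −log10 q-value, whose lowest value was 1.30, and a display score, the −log10 q-value times 10 to within 1, that was not used. Peaks were not pooled over samples. The input's own signal was not analysed here.

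Genes and promoter sequences came from RefSeq (GRCh38.p14). A peak was counted for a gene when its interval met the gene span extended by 10 kb on each side. Spans pool all transcripts, and strand was known only for the 26 members with a listed start; for other genes ends are named by coordinate. The pileup k and control level c at each summit were solved from fold = (k + 1)/(c + 1) and the Poisson probability of a higher count. In 2000 peaks simulated from these same formulas, the pileup was recovered for 100%. That checks the solving step only, not whether the caller's values follow the formulas, and the simulated peaks did not reach the highest folds and pileups of the members. Pileups have exact Poisson 95% confidence intervals, which cover the counting error of fragments only. Shares have Wilson 95% confidence intervals, which treat the genes or windows as random draws. Neither covers variation between libraries. No test between conditions was possible, and no test over the genes was made, since the members, gene groups and lists were chosen with earlier results of these data known. For every member named its strongest peak is given and, where there is one, a peak at an end, and for the 10 members of highest fold all peaks of fold 10 or more. ITGB3BP was left out by name. Of the members, 1 is in the counts and is otherwise not reported here. Motifs were searched on both strands of the promoter windows. Alternatives covered the window, the thresholds on fold and q, summits, the nearest gene and the gene lists. Positions are 1-based. Figures used matplotlib 3.10.9, and calculations scipy 1.17.1, pandas 2.3.3 and numpy 2.4.6 under Python 3.11.15.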

Additional observations from a re-analysis of the deposited data

How the results depend on the processing

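No paired analysis was possible because there was 1 immunoprecipitate and 1 input library. The windows held 90 distinct peaks with a fold of at least 10 required and 281 with windows of 50 kb, and the background share of genes with a peak was 93% for genes of at least 50 kb. The epithelial median of the strongest fold stayed within 1.5 times the reported value under all alternatives, and the leukocyte median was 58.1 both with a fold of at least 10 required, which drops ITGAX and ITGAD, and for the gene spans alone, which drop ITGAX and ITGB7, and 74.6 with windows of 50 kb. In windows of 50 kb the ITGAM peak of fold 151 was counted for ITGAX as well, and the strongest fold of ITGAD was 59.9. The epithelial minus leukocyte difference, -13.3 as reported, was negative throughout; it moved to -29.6 with a fold of at least 10, -21.9 with the nearest gene only, -35.0 for the spans and -45.9 with 50 kb. The median number of peaks per gene gave no stable order: the difference of -0.50 was -1 with a fold of at least 5 or of at least 10, -2 without ITGA4 and ITGAE, 0 with the nearest gene only, with summits and for the spans, and -4 with 50 kb, and it changed sign to 0.50 without ITGB1 and ITGAV and to 1 with 5 kb. The group medians behind it were 1 (epithelial) and 2 (leukocyte) with a fold of at least 10, 6 and 10 with 50 kb, and 2 in the leukocyte genes for the spans and with 5 kb. Per 100 kb the difference of -3.88 kept its sign and was -2.44 with a −log10 q of at least 10, -2.09 with a fold of at least 10, -1.52 with the nearest gene only, -1.34 for the spans and -0.88 with 5 kb. With a peak of any fold counted, 6 of 9 epithelial and 3 of 8 leukocyte genes had one within 1 kb of an end, against 62.3% of all protein-coding genes. With 3 kb these counts were 7 and 5, without a background share for that window. The cause of these moves was not tested, beyond the peaks and genes that each setting removes or adds. Of 37 genes, 16 had a strongest fold that moved beyond its counting interval under at least 1 of 5 settings, 13 of them with windows of 50 kb. With a median pileup of 26 fragments over all peaks, small differences in fold between peaks were not detectable at this depth.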
